A study of Mus musculus with 4 samples.

Results

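Zscan4b, Zscan4c, Zscan4d, Zscan4e, Zscan4f, Tcstv1, Tcstv3 and Gm4340 are genes of the 2-cell mouse embryo whose RNA was followed here in 3 Geminin knockdown libraries and 1 control library. They are 8 of the 21690 features in each deposited table and were found by their symbols. They were chosen because their levels in knockdown libraries 2 and 3 stood far above the control, so their knockdown and control values below are a description and carry no test. The study lowered Geminin, a nuclear protein that holds back the replication licensing factor Cdt1, while mouse embryonic stem (ES) cells were becoming neural precursors, and asked which transcripts changed. The knockdown group is 3 libraries, each from an independent experiment with A2lox ES cells that carry a doxycycline-inducible knockdown of Geminin. Their RNA was taken on day 5 of monolayer culture in N2B27 (medium without serum, used to direct ES cells to neural fates), after 500 ng doxycycline had been present since day 3. The control group is 1 library of the same inducible cells that grew for the same 5 days without doxycycline. Both groups come from 1 ES cell line that was kept on mouse fibroblast feeder cells before differentiation, and all 4 libraries shared 1 sequencing lane. No library had doxycycline without the knockdown, so doxycycline and loss of Geminin cannot be told apart, and the control has no replicate.

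Zscan4 genes encode zinc finger proteins with a SCAN domain, a module through which such proteins pair. They are switched on in the late 2-cell embryo, and in ES cell cultures they appear in a small and changing fraction of cells at any moment, where they are known for telomere lengthening and genome stability. Tcstv1 and Tcstv3 are further 2-cell embryo genes, and both are known as positive regulators of telomere length in ES cells. Gm4340 is a member of a multicopy family that is read in the same 2-cell state. That state is driven in the embryo by the homeobox factor Dux and also brings on ubiquitin proteases of the Usp17l family, Tdpoz genes and Zfp352. In RNA from a whole culture, more cells in this state and more RNA per cell cannot be told apart.

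The promoters are shown for 3 Zscan4 copies and for Gm4340, because these genes moved together in the libraries while only the Zscan4 copies resemble each other. Zscan4f and Zscan4c were the most abundant Zscan4 genes, Zscan4d has the largest share of sequence of its own, and Gm4340 has no stretch of 50 bases in common with any Zscan4 transcript. Each line holds the 250 bases before the RefSeq start (GRCm38.p6), 5′ to 3′ along the gene, at chr7:11397665-11397914 (plus strand) for Zscan4f, chr7:11005495-11005744 (plus strand) for Zscan4c, chr7:11166149-11166398 (minus strand) for Zscan4d and chr10:104193792-104194041 (plus strand) for Gm4340. Capitals mark the letters of a TATA box (TATAAA), a nuclear receptor half-site (AAGGTCA, which reads TGACCTT from the other strand) and part of the Dux motif (GATTCAA, which reads TTGAATC from the other strand).
Zscan4f: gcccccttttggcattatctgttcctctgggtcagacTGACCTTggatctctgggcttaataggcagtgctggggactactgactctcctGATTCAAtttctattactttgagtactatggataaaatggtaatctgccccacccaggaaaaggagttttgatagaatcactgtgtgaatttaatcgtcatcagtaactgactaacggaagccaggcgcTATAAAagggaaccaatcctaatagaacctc
Zscan4c: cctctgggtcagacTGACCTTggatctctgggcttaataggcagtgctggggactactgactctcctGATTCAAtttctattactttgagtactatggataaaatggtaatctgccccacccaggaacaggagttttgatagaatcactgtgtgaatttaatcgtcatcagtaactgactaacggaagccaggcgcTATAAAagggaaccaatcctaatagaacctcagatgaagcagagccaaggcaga
Zscan4d: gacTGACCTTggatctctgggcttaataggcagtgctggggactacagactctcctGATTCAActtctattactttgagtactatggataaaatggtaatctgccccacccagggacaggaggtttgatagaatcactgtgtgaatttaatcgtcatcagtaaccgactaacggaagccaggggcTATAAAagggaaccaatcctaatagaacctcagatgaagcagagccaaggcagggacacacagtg
Gm4340: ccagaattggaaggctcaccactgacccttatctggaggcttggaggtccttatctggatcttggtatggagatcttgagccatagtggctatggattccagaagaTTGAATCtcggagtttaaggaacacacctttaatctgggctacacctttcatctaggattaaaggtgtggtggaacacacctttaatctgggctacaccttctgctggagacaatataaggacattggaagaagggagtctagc

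RefSeq held promoters for 5 of the 8 genes, namely these 4 and Zscan4b. The 4 Zscan4 promoters were 95.3% to 99.3% identical over their aligned bases, so they are copies of 1 sequence and not separate cases. In each of them TATAAA, the letters of a TATA box, stood upstream of the start: it began 31 bases before it in Zscan4b and Zscan4f, 54 in Zscan4c and 65 in Zscan4d. TATAAA was found on either strand in 13.6% of 32851 RefSeq promoter windows of 300 bases, that is, 250 before and 50 after the start. AAGGTCA, the letters of a nuclear receptor half-site, stood on the minus strand of all 4 Zscan4 promoters, was not found in Gm4340 and occurs in 4.72% of windows. GATTCAA, letters within the sequence that Dux is known to bind, was found in 5 of 5 promoters, on the plus strand in the Zscan4 copies and on the minus strand in Gm4340, against 2.13% of windows. The letters AAGGTCA, like the letters GATTCAA, were picked after the sequences had been seen. Of 19 other 2-cell genes with a RefSeq promoter, 5 held GATTCAA, namely Gm13040, Gm13043, Gm428, Pramel6 and Tdpoz5. None of the 19 rose by the study's rule, described below, so a link between these letters and a rise was not tested. TGCACAC, the letters Zscan4 proteins are known to bind, and CACGTG, an E-box, were in none of the 5 promoters, against 4.40% and 7.15% of windows. These are letters in a window and not binding sites.

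How much sequence the copies share limits what a level of any 1 of them means. In the GENCODE M21 transcripts, the 10 pairs among Zscan4b to Zscan4f were 96.6% to 99.7% identical over aligned bases, with a median of 97.6%. Transcripts were also cut into all words of 50 bases, and words found in no other gene were counted. Zscan4d had 50.4% such words, Zscan4c 14.5%, Zscan4b 9.65%, Zscan4e 8.43% and Zscan4f 4.66%. Zscan4b and Zscan4e were the closest pair of the 5, with 87.1% of Zscan4b words also in Zscan4e, and RefSeq lists Zscan4e as a pseudogene while GENCODE M21 lists it as coding. Fragments of these genes can therefore be dealt out among copies by the authors' counting, and the sum over the 5 is firmer than the level of any 1 copy. The sum and the single levels can still hold fragments of other loci. Zscan4-ps2, a pseudogene that was not measured here, holds 84.7% of Zscan4f words and 71.4% of Zscan4c words. Tcstv1 and Tcstv3 were 90.2% identical over 743 aligned bases, but 83.2% of Tcstv1 words and 68.6% of Tcstv3 words were their own. Gm4340 was the other extreme, since 1.16% of its words were its own and 98.8% were shared with the predicted gene Gm8764. In the tables (mm9) Gm4340 covers chr10:103605568-103625055, a span far longer than 1 copy, and its level stands for that multicopy family.

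**Figure D1:**
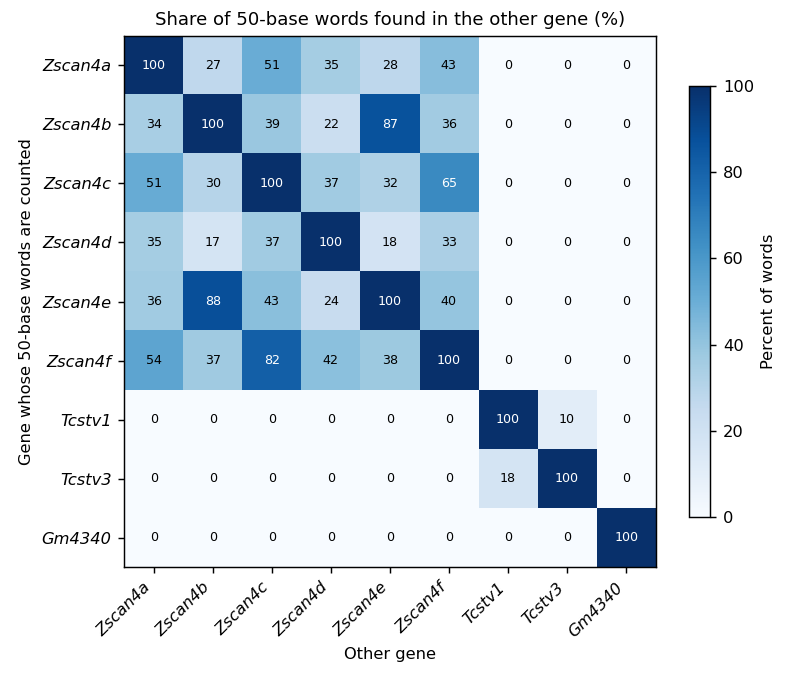
Share of each gene's 50-base words (rows, percent) that occur in a transcript of the other gene (columns), with each gene set to 100 against itself. The Zscan4 copies form a block with 87.1% of Zscan4b words in Zscan4e, Tcstv1 and Tcstv3 share few words, and Gm4340 shares none with the others shown.

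Before the levels of these genes, 1 feature of the libraries has to be given. Gmnn, which encodes Geminin, had 27.0, 65.9 and 27.9 FPKM in knockdown libraries 1, 2 and 3, against 113 FPKM in the control, which is 24.0%, 58.4% and 24.7% of the control level. FPKM are fragment numbers divided by exon length and by the mapped fragments of the library, so they allow levels to be compared between genes per length. Gmnn was thus lowest in libraries 1 and 3, and the authors' deposited tables marked its fall in those 2 libraries. Over the lists of marker genes, however, library 1 lay close to the control and away from libraries 2 and 3: 20 pluripotency markers summed to 165, 415 and 682 FPKM in knockdown libraries 1, 2 and 3, against 138 FPKM in the control, and 13 neuronal markers to 162, 657 and 318 FPKM, against 155 FPKM in the control. The mean log2 ratios of the families and the limma result for the 2-cell list are therefore also given without library 1. Neural precursor markers were abundant throughout, for example the neural transcription factor Sox1 at 63.8, 42.5 and 48.8 FPKM in knockdown libraries and 64.0 FPKM in the control, and the intermediate filament gene Nes at 106, 125 and 113 FPKM against 100 FPKM in the control.

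The Zscan4 genes were near the lower limit of measurement in the control and in knockdown library 1, and were readily measured in libraries 2 and 3. Summed over Zscan4b to Zscan4f, they reached 3.23, 46.9 and 103 FPKM in knockdown libraries 1, 2 and 3, against 0.948 FPKM in the control, which is 3.41, 49.4 and 109 times the control. All 3 knockdown libraries were above the control, but library 1 lay far nearer to it than to libraries 2 and 3. The knockdown libraries averaged 51.1 ± 50.1 FPKM (SD, n = 3), so the spread among them was about as large as their mean. On the log2(FPKM + 1) scale, on which 1 is added so that low values do not dominate, the ratios were 1.12, 4.62 and 5.74, with a mean of 3.83 (SD 2.41), or 5.18 without library 1.

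Zscan4f, the most abundant copy, had 1.00, 13.8 and 27.1 FPKM in knockdown libraries 1, 2 and 3, against 0.210 FPKM in the control. Zscan4c, which has been described as the copy prominent in ES cells, had 0.518, 10.6 and 22.1 FPKM in the knockdown libraries, against 0.239 FPKM in the control. Zscan4d, the copy known for the 2-cell embryo and the one with most sequence of its own, had 0.558, 8.05 and 19.4 FPKM, against 0.274 FPKM in the control. In each of the 3 genes the libraries kept the order of the sum, with library 3 highest and the control lowest. Zscan4b had 0.561, 6.68 and 16.6 FPKM in the knockdown libraries, against 0.122 FPKM in the control. Zscan4e had 0.589, 7.77 and 17.9 FPKM, against 0.103 FPKM in the control. These 2 nearly indistinguishable copies thus had nearly equal levels in every library.

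The makeup of the Zscan4 sum varied little between the 2 libraries in which it was high. Zscan4f made up 31.0%, 29.4% and 26.3% of the sum in knockdown libraries 1, 2 and 3, against 22.2% in the control. Zscan4d made up 17.3%, 17.2% and 18.8% in the knockdown libraries, against 28.9% in the control. The control shares rest on very few fragments. The steps between the lowest values in a library show what 1 fragment is worth, and by them the control sum of the 5 genes rests on about 12 fragments, against about 38, 635 and 1163 in knockdown libraries 1, 2 and 3. For single genes the control held about 1 fragment of Zscan4b and Zscan4e, 2 of Zscan4f, 3 of Zscan4c and 4 of Zscan4d, so no fold over the control is given for 1 Zscan4 copy, and the ordering of copies in the control is not distinguishable at this depth.

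Tcstv1 and Tcstv3 showed the same ordering of libraries. Tcstv1 had 0.358, 16.6 and 34.5 FPKM in knockdown libraries 1, 2 and 3, against 0.239 FPKM in the control. Tcstv3 had 0.566, 17.2 and 29.6 FPKM, against 0.454 FPKM in the control. Library 1 and the control could not be separated at this depth, since each held about 3 fragments or fewer per gene. Summed over both genes, the levels were 0.924, 33.8 and 64.2 FPKM in the knockdown libraries, against 0.693 FPKM in the control, with about 5, 237 and 382 fragments against 4. The knockdown mean was 33.0 ± 31.6 FPKM (SD, n = 3), and the log2(FPKM + 1) ratios were 0.18, 4.36 and 5.27, with a mean of 3.27 (SD 2.71), or 4.81 without library 1.

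Gm4340 had the highest level per length of the 8 genes in every library, 3.21, 48.1 and 74.3 FPKM in knockdown libraries 1, 2 and 3, against 1.92 FPKM in the control. This is 1.67, 25.0 and 38.6 times the control, which held about 15 fragments of it. The mean was 41.8 ± 35.9 FPKM (SD, n = 3). The log2(FPKM + 1) ratios averaged 3.09 (SD 2.25), or 4.38 without library 1.

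**Figure D2:**
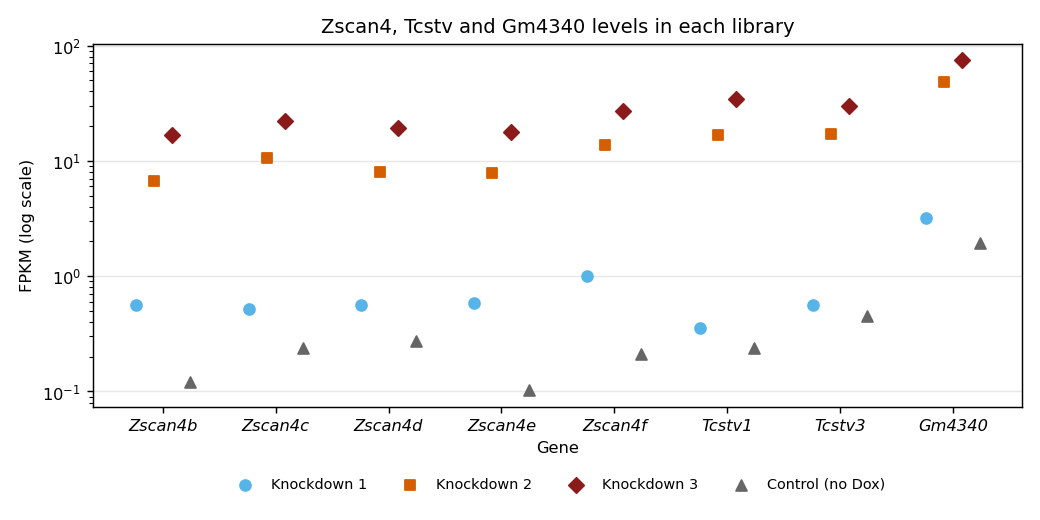
FPKM of each of the 8 genes (log axis) in knockdown libraries 1, 2 and 3 and in the control, 1 point per library. In all 8 genes libraries 2 and 3 lie between 6.68 and 74.3 FPKM, while library 1 and the control lie between 0.103 and 3.21 FPKM.

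Among themselves the 8 genes thus shared 1 order: library 3 highest, then library 2, then library 1, then the control. Library 3 exceeded library 2 by 1.55 to 2.49 times, with a median of 2.08, in 8 of 8 genes. The 8 are not separate cases, because the Zscan4 copies share fragments. For the Zscan4 sum, the Tcstv sum and Gm4340, library 3 was 2.20, 1.90 and 1.55 times library 2. Over all features with at least 1 FPKM in either library, 48% were higher in library 3 and 8.85% were at least 1.5 times higher in library 3 than in library 2, and among features that rose by the study's own rule, described next, 19.8% were. Gm4340 and Tcstv3 had the smallest gap between the 2 libraries, 1.55 and 1.72 times, and Zscan4b the largest, 2.49 times. Library 1 was listed above the control in 8 of 8 genes, which again are not separate cases. For each Tcstv gene this rests on about 3 fragments against 2. Of all features with a control level of 0.1 to 2 FPKM and above 0 in library 1, 45% were above the control in that library.

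The study called a gene changed when Cuffdiff, which tests 1 library against 1 library, marked it in at least 2 of the 3 tables, here in 1 direction and with no opposite mark. The authors' deposited tables marked all 8 genes as higher in libraries 2 and 3 and none of them in library 1, where 6 of the 8 were too low for a test. The marks covered 3.23% of features testable in library 2, 3.33% in library 3 and 0.909% in library 1. By the study's rule 1.98% of 14477 features that could be called rose and 0.905% fell. Since the 8 genes were picked on this contrast, their marks carry no further weight. The 3 tables share their control library, so they are not independent.

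Of 13 listed relatives of these genes, 3 were measured. Zscan4a, which RefSeq lists as a transcribed pseudogene, rose, with 0.455, 7.43 and 15.4 FPKM in knockdown libraries 1, 2 and 3, against 0.154 FPKM in the control. With Zscan4a added, the Zscan4 sum was 3.68, 54.3 and 119 FPKM, against 1.10 FPKM in the control. AF067063 was listed at 0 in knockdown library 1 and had 1.84 and 4.37 FPKM in libraries 2 and 3, against 0.223 FPKM in the control. LOC625360, which RefSeq now names BC147527, was listed at 0 in knockdown library 1 and in the control and had 0.745 and 1.84 FPKM in libraries 2 and 3. AF067063 and LOC625360 did not meet the study's rule. Both are listed near the Tcstv genes on unplaced sequence of mm9, where listed positions do not give distances. Both had the same order of libraries 2 and 3.

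Beyond these relatives, the nearest measured genes by listed position were at 0 or varied far less between the libraries. In the tables (mm9) Zscan4a to Zscan4f lie on chr7:11379589-11987667, with gaps of 87.2 to 151 kb between neighbouring copies. The nearest measured genes, the pheromone receptor genes Vmn1r71 at 44.7 kb before and Vmn1r72 at 267 kb after the cluster, were listed at 0 in all 4 libraries. The nearest gene with any signal, Gm6900 at 137 kb, had 61.9, 66.7 and 74.6 FPKM in the knockdown libraries, against 60.4 FPKM in the control. Tcstv1 and Tcstv3 lie on unplaced sequence of mm9 (chrUn_random, 37343 to 38715 and 3052 to 4452). RefSeq places both on chromosome 13 of GRCm38.p6, with starts at 119893387 and 120316862. The spacing listed on the unplaced sequence is therefore not their distance, and true neighbours cannot be told from it. The next abundant gene listed there, BC085271, had 196, 184 and 167 FPKM in the knockdown libraries, against 183 FPKM in the control. Gm4340 stands alone, with the amino acid transporter gene Slc6a15 724 kb before it at 4.31, 7.77 and 6.81 FPKM in the knockdown libraries, against 4.32 FPKM in the control. On its other side Tmtc2, at 1000 kb, had 4.33, 7.46 and 3.95 FPKM, against 4.34 FPKM in the control.

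**Figure D3:**
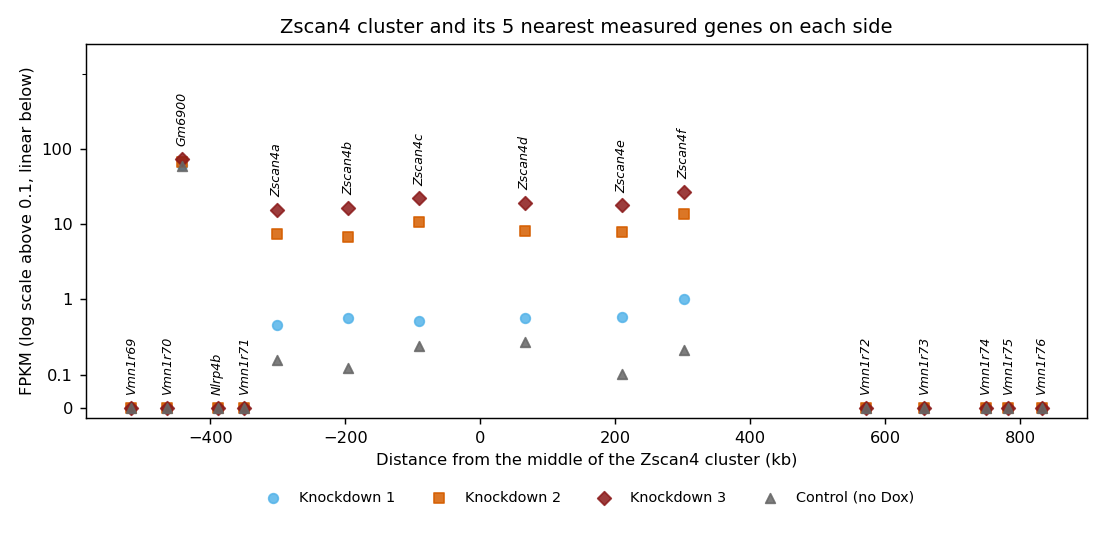
FPKM of Zscan4a to Zscan4f and of the 5 nearest measured genes on each side (log axis above 0.1 FPKM, linear below), by distance in kb from the middle of the cluster, 1 point per library. The Zscan4 copies separate libraries 2 and 3 from library 1 and the control, Gm6900 has about the same level in all 4 libraries, and the other 9 neighbours are listed at 0.

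A list of 65 other genes of the 2-cell embryo state was set beside the 8, and 51 of them were measured. Under the rule 8 of the 51 rose and none fell. Of the 22 that could be called, these 8 are 36.4%, beside 1.98% of all features. The median log2(FPKM + 1) ratios of these 22 were 0.00, 1.11 and 1.62 in knockdown libraries 1, 2 and 3. Over all callable features they were -0.00, 0.02 and 0.01. Some of the 22, such as Usp17l5 and Calcoco2, had a usable test in libraries 2 and 3 only. The 22, and with them the 36.4%, were therefore partly selected by levels in those libraries. Over all 51 measured genes the medians were 0, 0.23 and 0.60. Copies weigh heavily in the count of 8 too. Of 20 list genes that share no 50-base word with another list gene or with the 8, 6 could be called and 1 rose. It was the autophagy receptor gene Calcoco2. In limma, which fits 1 model across 11968 features and called 0.0251% of them higher and 0.1% lower in knockdown, 0 of the 6 list genes tested were called and 0 had an unadjusted p under 0.05, the smallest p being 0.148. Without library 1, 5 of the 6 had an unadjusted p under 0.05 and again 0 were called. In that fit 1231 of the 11968 features had an unadjusted p under 0.05, against 152 with all libraries.

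All 2-cell genes that rose were marked in libraries 2 and 3 and not in library 1. The rule thus fixes their high levels in those 2 libraries. Among them library 3 was from 1.08 (Calcoco2) to 2.15 (Gm5662) times library 2, beside 1.55 to 2.49 times in the 8 chosen genes. B020031M17Rik had 0.212, 8.22 and 11.3 FPKM in knockdown libraries 1, 2 and 3, against 0.212 FPKM in the control. Gm5662, Gm2016 and Gm8300, related genes of a cluster on chromosome 12, rose as well. Gm5662 had 1.47, 8.24 and 17.7 FPKM, against 0.957 FPKM in the control. Gm2016 had 2.25, 11.0 and 19.0 FPKM, against 2.10 FPKM in the control. Over the 6 measured genes of this chromosome 12 cluster the sum was 13.3, 51.3 and 95.4 FPKM in the knockdown libraries, against 13.2 FPKM in the control, that is, 1.02, 3.83 and 7.21 times the control. The cluster had a higher summed level in the control than the Zscan4 genes, and library 1 and the control were nearly equal. The other 4 that rose, Gm2022, Usp17l5, Tmem92-ps and Calcoco2, are named because they complete the count of 8. Usp17l5, a ubiquitin protease gene, was listed at 0 in knockdown library 1 and in the control, and had 1.52 and 2.24 FPKM in libraries 2 and 3. Calcoco2 had 0.358, 3.98 and 4.30 FPKM in the knockdown libraries, against 0.479 FPKM in the control.

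The rest of the 2-cell list was mostly too low to be called. In the control 29 of the 51 genes were listed at 0, and 23 of these were above 0 in library 3. Libraries 2 and 3 were both above library 1 and the control in 34 of the 51 genes, an order that 23.8% of all features had. The next genes were chosen after their values were seen, as the best known of the state. Dux, its activator, was listed at 0 in knockdown library 1 and in the control and had 0.345 and 0.530 FPKM in libraries 2 and 3. Zfp352, a zinc finger gene of the early embryo, was listed at 0 in library 1 and had 0.387 and 1.53 FPKM in libraries 2 and 3, against 0.372 FPKM in the control. The 5 Tdpoz genes together were listed at 0 in library 1 and in the control and had 1.08 and 3.46 FPKM in libraries 2 and 3. These 3 sets stayed far below the Zscan4 sum in the same libraries.

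Most genes known to regulate the Zscan4 state, or to lie in its telomere functions, did not meet the study's rule, as was so for most features. Of 41 measured regulators 3 rose and 2 fell. These are 7.5% and 5% of the 40 that could be called, beside 1.98% and 0.905% of all features. The list overlaps with those below: Zfp42 is also counted among the pluripotency markers and Dnmt3b among the epiblast markers. Dppa2, a chromatin protein that activates Dux and Zscan4 in ES cells, had 1.49, 7.42 and 13.2 FPKM in knockdown libraries 1, 2 and 3, against 0.970 FPKM in the control. Zfp42, also known as Rex1, had 4.68, 33.0 and 58.0 FPKM, against 3.74 FPKM in the control. Both had the order of libraries 2 and 3 seen in the 8 genes. Tet2, a DNA demethylase, had 3.23, 6.85 and 9.35 FPKM, against 3.24 FPKM in the control. Lin28a, an RNA-binding regulator of let-7, fell and had 423, 169 and 193 FPKM, against 459 FPKM in the control, and Dnmt3b, a DNA methyltransferase of the early embryo, fell and had 45.4, 25.8 and 28.8 FPKM, against 43.6 FPKM in the control. The remaining 36 did not meet the rule, among them the repressor Trim28 at 232, 225 and 259 FPKM in the knockdown libraries and 240 FPKM in the control. Of 21 telomere genes 1 rose, which is 5% of the 20 that could be called. It was Smc1b, a cohesin subunit of meiosis, at 1.55, 3.74 and 5.67 FPKM against 0.839 FPKM in the control. Of 25 other SCAN domain genes, 24 of which could be called, 0 rose and 0 fell. The most abundant of them, Peg3, had 120, 106 and 138 FPKM in the knockdown libraries, against 116 FPKM in the control.

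**Figure D4:**
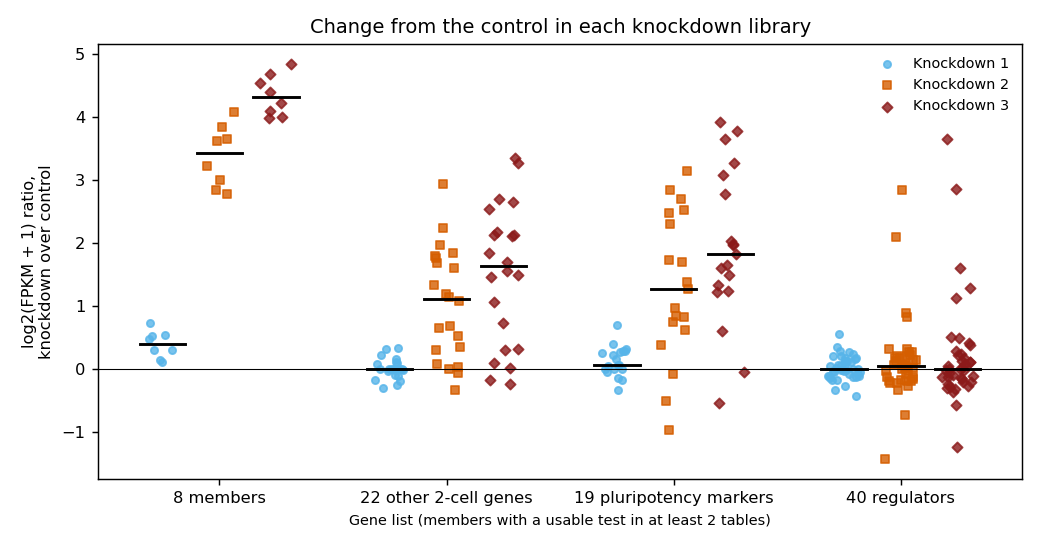
log2(FPKM + 1) ratio of each knockdown library over the control for the 8 genes, 22 other 2-cell genes, 19 pluripotency markers and 40 regulators that could be called, 1 point per gene with the list median as a black line. The 2-cell list has medians of 0.00, 1.11 and 1.62 in libraries 1, 2 and 3 and the pluripotency list 0.06, 1.26 and 1.82. Over all 51 measured 2-cell genes, not all of which are drawn, the medians are 0, 0.23 and 0.60. The regulators have medians of -0.008, 0.042 and -0.004, with single genes farther from 0 on both sides. Examples are Dppa2 at 0.34, 2.10 and 2.85 and Lin28a at -0.12, -1.44 and -1.24.

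Markers of other cell states moved in the same libraries. Of 20 pluripotency markers 11 rose and none fell, with median log2(FPKM + 1) ratios of 0.06, 1.26 and 1.82 in knockdown libraries 1, 2 and 3 over the 19 that could be called. The 11 are 57.9% of these 19, beside 1.98% of all features. Dppa5a, an RNA-binding protein gene of ES cells, had 32.8, 184 and 286 FPKM, against 19.9 FPKM in the control, Tdgf1, a Nodal co-receptor gene, had 1.68, 14.6 and 35.5 FPKM, against 1.42 FPKM in the control, and Esrrb, a nuclear receptor of naive ES cells, had 0.415, 6.83 and 12.6 FPKM, against 0.417 FPKM in the control. Library 3 was above library 2 in 19 of these 20 markers, as it was in all 8 genes. The markers Prdm14 and Tcl1 were listed at 0 in library 1 and in the control, Nr0b1 in the control, and Dppa3 in library 3. The Zscan4 sum was 1.96%, 11.3% and 15.1% of the summed pluripotency markers in knockdown libraries 1, 2 and 3, against 0.686% in the control. Relative to Zfp42 alone it was 68.9%, 142% and 178%, against 25.4% in the control. The control shares rest on about 12 Zscan4 fragments, and all shares depend on the markers summed. Sall4 held 41.6 of the 138 FPKM of the marker sum in the control. In libraries 2 and 3 Sall4 was 0.69 and 0.96 times the control, the marker sum 3.00 and 4.93 times, and Esrrb 16.4 and 30.2 times. The part of ES-like cells in the Zscan4 and Tcstv levels was not tested.

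**Figure D5:**
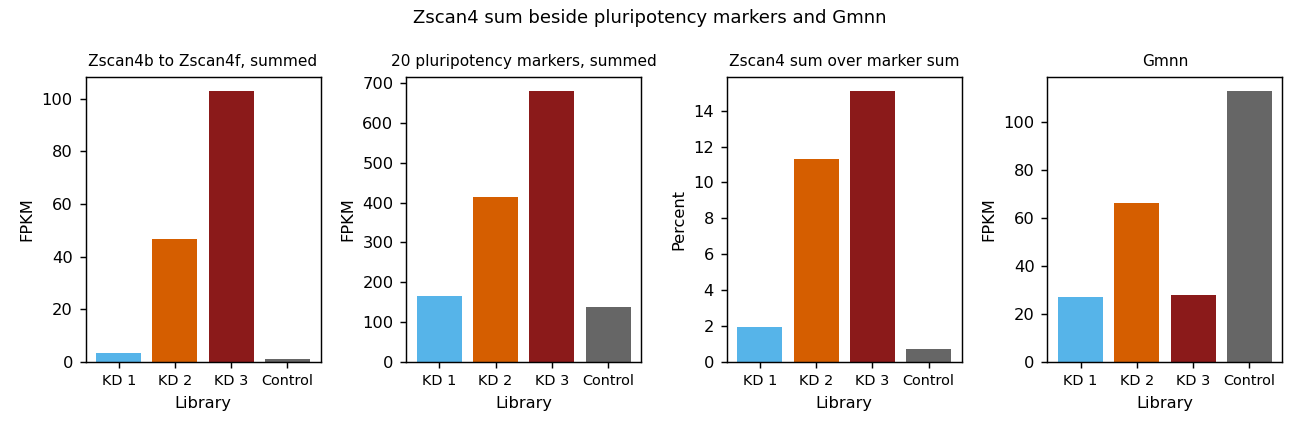
Summed FPKM of Zscan4b to Zscan4f, summed FPKM of 20 pluripotency markers, the first as a percentage of the second, and FPKM of Gmnn, 1 bar per library (KD 1, 2 and 3 are the knockdown libraries). The Zscan4 sum of 3.23, 46.9 and 103 FPKM has the same order of libraries as the marker sum, while Gmnn was at 27.0 FPKM in library 1 and 27.9 FPKM in library 3.

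Of 13 neuronal markers 8 rose, which is 66.7% of the 12 that could be called, beside 1.98% of all features. All 13 were higher in library 2 than in library 3, the reverse of the 8 genes. Nhlh2, a neuronal transcription factor gene, had 0.194, 26.7 and 10.2 FPKM in knockdown libraries 1, 2 and 3, against 0.146 FPKM in the control. Of 12 markers of the primed epiblast 4 fell and 0 rose. The 4 are 40% of the 10 that could be called, beside 0.905% of all features. They were led by the signalling gene Wnt8a at 10.9, 0.808 and 2.04 FPKM, against 9.90 FPKM in the control. In this list 10 of the 12 were higher in library 3 than in library 2. Of 12 neural precursor markers, all of which could be called, 1 rose (8.33%). It was the intermediate filament gene Vim, at 376, 1005 and 958 FPKM against 388 FPKM in the control. Of 14 fibroblast markers, given because the ES cells had grown on feeder cells, 3 rose, and these had the order of libraries seen in the 8 genes. They are 27.3% of the 11 that could be called. Lox, a collagen cross-linking enzyme gene, had 4.54, 9.41 and 16.1 FPKM in knockdown libraries 1, 2 and 3, against 3.56 FPKM in the control. Col5a2, a fibrillar collagen gene, had 2.38, 4.49 and 8.42 FPKM, against 1.70 FPKM in the control, and Postn, a matrix protein gene, had 2.71, 4.74 and 6.55 FPKM, against 1.23 FPKM in the control. Libraries 2 and 3 were both above library 1 and the control in 9 of the 14 fibroblast markers, an order that 23.8% of all features had. The list summed to 253, 140 and 334 FPKM in the knockdown libraries, against 221 FPKM in the control, a sum carried mostly by Acta2 and Fn1, which were lowest in library 2. Of 14 trophoblast and primitive endoderm markers 2 fell, the keratin genes Krt18 and Krt8, which are 18.2% of the 11 that could be called. Library 3 was above library 2 in 11 of the 14. The list summed to 441, 152 and 264 FPKM, against 411 FPKM in the control. Among these lists, Foxd3 of the epiblast was listed at 0 in library 1, Lum of fibroblasts in library 3 and the control, S100a4 of fibroblasts in library 2, the trophoblast markers Cdx2 and Elf5 in library 3, and the endoderm marker Afp in all 4 libraries. The part of these cell types in the levels of the 8 genes was not tested.

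The features most like the Zscan4 sum were sought over the 3 ratios to the control on the log2(FPKM + 0.1) scale, by straight-line distance. Of 12848 features with at least 1 FPKM in a knockdown library, Nr0b1 was nearest at a distance of 0.746, then Zscan4a at 1.06. The median distance was 8.73. The added 0.1 FPKM lowers the ratios of Zscan4a, at 0.154 FPKM in the control, more than those of the sum, at 0.948 FPKM. The order of Nr0b1 and Zscan4a therefore depends on that setting and does not make Nr0b1 the closer gene. Nr0b1, a nuclear receptor gene of ES cells also known as Dax1, had 0.192, 4.76 and 5.85 FPKM in knockdown libraries 1, 2 and 3 and was listed at 0 in the control. Its level in library 3 was 1.23 times that in library 2, below the 1.55 to 2.49 times of the 8 genes. The next were Rpl39l, Prdm13, Dazl, Tmem92-ps, Tuba3b and 2410076I21Rik, at distances of 1.78 to 1.97. Tmem92-ps, Tuba3b and 2410076I21Rik were, like Nr0b1, listed at 0 in the control, so their ratios depend on the added 0.1 FPKM. Rpl39l, a ribosomal protein paralogue, had 0.508, 7.62 and 15.9 FPKM, against 0.255 FPKM in the control. Dazl, a germ cell RNA-binding protein gene, had 0.223, 3.78 and 5.30 FPKM, against 0.0559 FPKM in the control. Prdm13, a neural transcription factor gene, had 0.617, 12.3 and 7.11 FPKM, against 0.155 FPKM in the control, and so was higher in library 2 than in library 3, unlike the 8 genes. With 3 points per feature this likeness is a description only.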

How the data were processed

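RNA from 4 libraries, 3 knockdown and 1 control, was sequenced on an Illumina instrument, per the labels. TopHat, Cufflinks, Cuffdiff and mm9 are named in the submitters' processing notes. For their versions and for the gene models the entry is: not given in the sources used here. The deposited tables number 3, 1 per knockdown library, and per the file headers each sets that library against the same control. The authors gave FPKM for both, a p-value, a q-value treated as a score because it passes 1, and a natural log ratio with the control on top, a score used to check direction. The 2 deposited lists of marked features were not used. Control values of the 8 genes were identical in the 3 tables, and ratios were formed within a table.

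No counts were given. From the steps of low FPKM times transcript length, with GENCODE M21 lengths, 1 fragment was worth 0.146 to 0.176 FPKM per kilobase, which implies 5680000 to 6830000 fragments per library. Of the low values, 71.1% to 76.7% lay within 0.15 of a whole fragment, so fragment numbers are approximate and were not used in a test. They cover counting error only, and values listed at 0 can be failed estimates.

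Log2 ratios used FPKM plus 1 and understate changes of low genes. The limma fit (version 3.58.1, R 4.3.3) took log2(FPKM + 1) values and a trended prior variance. It covered 11968 features that had a usable status in every table and averaged at least 1 FPKM, with Benjamini-Hochberg adjustment at 0.05. Only the knockdown libraries gave it spread, with 2 residual degrees of freedom, and it called 3 features higher and 12 lower. An exact permutation test was not run, since 3 libraries against 1 cannot reach 0.05. The scripts were tested on simulated data. Python 3.11.15, Biopython 1.88 and RefSeq GRCm38.p6 served the sequence work. List genes were matched by symbol or RefSeq synonym.

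The 8 genes and all lists were chosen with earlier results of these data known. Genes named are the 8, their measured relatives, Gmnn, up to 4 called genes of each list, by size of mean log2 ratio (the most abundant where none was called), the nearest neighbours, and the 8 features most like the Zscan4 sum.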

Additional observations from a re-analysis of the deposited data

How the results depend on the processing

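The mean log2 ratio of the Zscan4 sum, 3.83 as reported, lay between 2.52 (median over the 5 genes) and 5.18 in the alternatives. Its sign was all but fixed, because the 8 genes were chosen for high levels in libraries 2 and 3. Only the size of the ratio could vary. Leaving out 1 knockdown library at a time gave 2.87 to 5.18 for the Zscan4 sum, 2.27 to 4.81 for the Tcstv sum and 2.30 to 4.38 for Gm4340, in each case highest without library 1. A pseudocount of 0.01 FPKM gave 4.71, 4.17 and 3.54. Of 32 alternative values for single genes none changed sign, which the choice of the genes again all but fixed. Of these values 2 moved by more than 1 SD, those of Zscan4b and Zscan4e with a pseudocount of 0.1 FPKM. The count of other 2-cell genes that rose, 8 as reported, was 13 when a mark in at least 1 table was enough, 0 when all 3 tables had to mark the gene, and 1 among genes sharing no 50-base word, an alternative chosen after seeing the data with those adding Zscan4a and weighting by transcript length. Leaving out 1 knockdown library gave 0 to 8, with 0 without library 2 and 0 without library 3, because both remaining tables then had to mark the gene and library 1 marked none of them. limma called 0 of these genes in all 7 settings, and an unadjusted p under 0.05 was seen in 5 of 6 without library 1, where 1231 of 11968 features had one, and in 0 in the others. No paired analysis was possible because the control is 1 library and the groups share 1 replicate number. Depth limits low levels: the Tcstv sum rests on about 5 fragments in knockdown library 1 and 4 in the control, and 29 of 51 other 2-cell genes were listed at 0 in each of these libraries.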
